A study of Mus musculus with 10 samples.

Results

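Rows whose symbol starts with Mir were examined in RNA libraries of endothelial cells purified from mouse gliomas in which Sox17, a transcription factor of arterial endothelium, had been deleted or not. The deposited counts of the 6 Sox17 libraries list 24421 symbols, and 1183 of these are absent from the counts of the 4 Sox7 libraries of the same series. All 1183 start with Mir. The 52 rows described here were selected on a summed raw count of 30 or more over the 6 Sox17 libraries. A further 118 rows had a summed count of 1 to 29, and 1013 were at 0 in all 6 libraries. The 52 rows held 99.1% of the 64320 counts of all Mir rows. The choice rests on the sum over both groups, so the levels below are a description, while the difference between the groups was not used.

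There were 3 Sox17-deficient libraries, from C57BL/6 background mice that carried floxed Sox17 (Sox17 fl/fl) and the Cdh5(BAC)-CreERT2 driver, in which the promoter of an endothelial cadherin expresses a recombinase activated by tamoxifen. These mice received 20 mg/kg tamoxifen by intraperitoneal injection. The 3 Sox17 control libraries came from the same background, and neither their Cre status nor their treatment is given in the labels, so deletion, tamoxifen and Cre activity cannot be told apart. All mice carried intracranial tumours grown from GL26l glioma cells. Age and the number of animals behind each library are not given. The p-values thus cover the spread among these libraries, whether biological or technical. Libraries 1, 2 and 3 of each group are matched by number into 3 sets, each of a deficient and a control library.

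MicroRNAs are short RNAs that guide Argonaute proteins to messenger RNAs, mainly through the seed, the bases from 2 to 8 of the mature strand. They are cut from hairpins in longer primary transcripts by Drosha in the nucleus and by Dicer in the cytoplasm. A hairpin may lie in a dedicated non-coding host transcript, in an intron or an exon of a protein-coding gene, or between genes. In endothelium the miR-17-92 cluster, miR-126, miR-21, miR-221 and the miR-23/27/24 cluster are known regulators of sprouting and vessel stability. Mature microRNAs carry no poly(A) tail, and the Lexogen Quant-Seq kit named in the labels is made for polyadenylated RNA. A count in a Mir row is thus a read assigned to the annotated hairpin or host transcript and does not measure the mature microRNA.

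The 2 rows with the highest counts, Mir703 and Mir682, and the 3 low miR-692 rows carry sequences that also occur in messenger RNAs of protein-coding genes, and these sequences are shown first, with the seed in capitals (RefSeq, GRCm38.p6). The strand of Mir703 lies at chr5:98475616-98475636 on the minus strand and occurs letter for letter in the 3′ UTR of Eef1a1, a translation elongation factor. That of Mir682 lies at chr13:75645119-75645139 on the plus strand and occurs in the coding sequence of Rpl37a, a protein of the large ribosomal subunit. The strand shared by Mir692-1, Mir692-2 and Mir692-3 occurs in the coding sequence of Ftl1, the ferritin light chain.
mmu-miR-703: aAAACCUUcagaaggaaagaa
mmu-miR-682: cUGCAGUCacagugaagucug
mmu-miR-692: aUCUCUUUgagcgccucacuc

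The whole Mir682 hairpin, 96 bases at chr13:75645046-75645141, was set against positions 182 to 277 of the Rpl37a transcript, inside its coding sequence (positions 32 to 307). The capitals mark the single difference, C48T, counted from the 5′ end of the hairpin.
Mir682 hairpin: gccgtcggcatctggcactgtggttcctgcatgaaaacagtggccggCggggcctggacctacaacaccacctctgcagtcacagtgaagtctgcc
Rpl37a: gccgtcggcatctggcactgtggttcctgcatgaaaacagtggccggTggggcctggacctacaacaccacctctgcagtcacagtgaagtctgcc
The Mir682 locus itself lies in an exon of Gm4149, a processed pseudogene, and its hairpin matched 11 further pseudogenes at 90% identity or more over at least 90% of its length. The Mir703 hairpin was 98.2% identical to the Eef1a1 transcript.

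Mature strands known from endothelium are shown next, because their rows held few counts. The strands of Mir24-2 and Mir27a come from neighbouring hairpins whose starts lie 143 bases apart on chromosome 8, and that of Mir20a from the miR-17-92 cluster on chromosome 14.
mmu-miR-21a-5p: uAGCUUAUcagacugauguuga
mmu-miR-24-3p: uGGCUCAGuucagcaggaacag
mmu-miR-27a-3p: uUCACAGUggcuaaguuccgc
mmu-miR-221-3p: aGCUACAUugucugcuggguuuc
mmu-miR-20a-5p: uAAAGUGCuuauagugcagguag
Beyond the miR-692 rows, seeds were shared by 2 pairs of rows, which are shown because rows with a common seed are read as one targeting family. These are the miR-29 pair (Mir29b-1 and Mir29c) and the let-7 pair (Mirlet7d and Mir98).
mmu-miR-29b-3p: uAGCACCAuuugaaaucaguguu
mmu-miR-29c-3p: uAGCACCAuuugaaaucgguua
mmu-let-7d-5p: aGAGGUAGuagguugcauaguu
mmu-miR-98-5p: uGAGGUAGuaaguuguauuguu

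Of the 52 rows, 44 had an entry in the RefSeq microRNA table, 37 with a hairpin sequence, giving 72 mature strands. For 16 rows at least 1 mature strand occurred exactly in a transcript of a protein-coding gene listed in the files, in the coding sequence for 10 rows and in the 3′ UTR for 6. These 16 rows held 69.6% of the counts of the 52. The hairpins had a median length of 88 bases and a median GC content of 55.0%, against 79 bases and 51.7% in the 920 other Mir rows with a hairpin sequence. By position in GENCODE vM21, 22 rows lay in a same-strand exon of another gene with 30.3% of the counts, 5 partly in an exon with 0.98% and 10 in a same-strand intron with 1.53%. Another 10 rows had no same-strand host and held 59.0%, mostly Mir703. The last 5 rows, with 8.22%, are not hairpins but whole host transcripts: Mir22hg, Mir17hg, Mir143hg, Mir155hg and Mirg. No 3 rows formed a cluster within 10 kb.

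Depth and cell content differed between the libraries. Total counts were between 6681760 and 35098704 in the Sox17-deficient libraries and between 2085020 and 16815416 in the Sox17 controls, the shallowest being control 1. A count of 0 allows up to 3 counts, or between 0.0871 and 0.416 CPM (the count relative to the TMM-scaled library total, the usual normalised unit) in the deficient libraries and between 0.193 and 1.42 CPM in the controls, for counting error alone. The ribosomal precursor Rn45s took 3.93% to 15.2% of the deficient and 4.35% to 16.8% of the control counts. Sox17 itself had 14, 38 and 54 counts in Sox17-deficient 1, 2 and 3, against 384, 1140 and 1508 in controls 1, 2 and 3. Its log2 fold change was −5.25 (SE 0.74, edgeR adjusted p = 0.122), and with the sets as a block it was −5.58 (edgeR adjusted p = 0.0164), the one call among 11392 symbols. The 10 endothelial markers summed to 8039 to 16960 CPM in the deficient and 7885 to 12620 CPM in the control libraries, and none was at 0. The 6 pericyte markers summed to 192 to 216 CPM in the deficient and 262 to 850 CPM in the control libraries. The 5 erythroid markers summed to 70.8 to 434 CPM in the deficient libraries, against 131 to 3024 CPM in the controls, with the highest sum in control 1. The part of such cells in the results below was not tested. In these bulk samples fewer cells of a type and less RNA per cell cannot be told apart.

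A few rows carried nearly all of the counts. Mir703 alone held 42.6% of the 63724 counts of the 52 rows, the top 4 rows held 76.4% and the top 10 held 90.1%. The 52 rows together made up 0.0669% to 0.0921% of the deficient and 0.067% to 0.13% of the control library counts. Their summed level averaged 808 ± 91.6 CPM in Sox17-deficient and 890 ± 341 CPM in Sox17 control libraries (SD, n = 3 each), with 1277 CPM in control 1 and 634 to 867 CPM in the other 5 libraries. Without control 1 the control mean was 697 CPM.

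**Figure D1:**
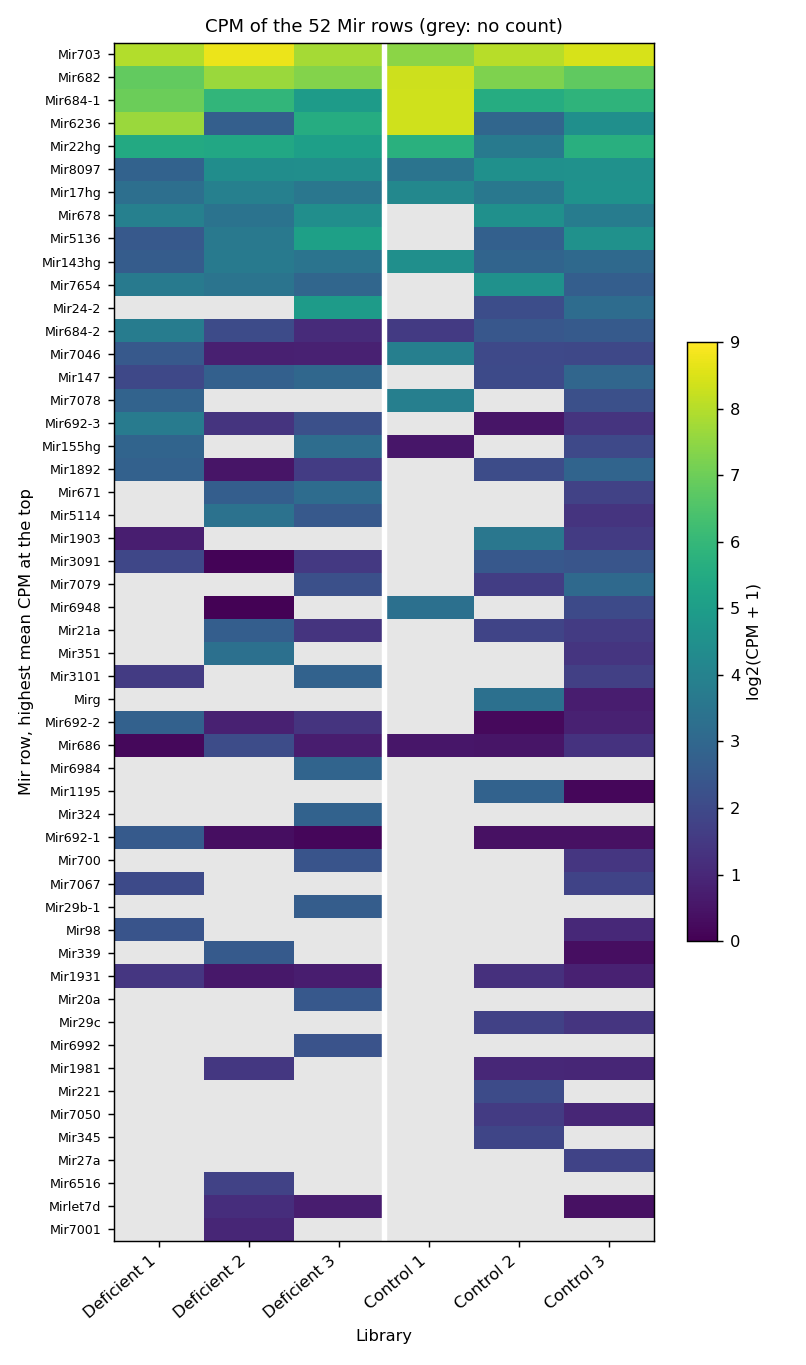
Level of each of the 52 Mir rows (vertical axis, highest mean at the top) in the 3 Sox17-deficient and 3 Sox17 control libraries (horizontal axis), as log2(CPM + 1) by colour, with grey where a row had no count. The 4 rows with the highest means were counted in every library, while most rows below the first 20 were grey in 3 or more, and control 1 had a count in 14 of the 52 rows.

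The 4 highest rows are all hairpin rows. Mir703, a hairpin on the strand opposite to an intron of Cfap299, had 248, 429 and 219.7 CPM in Sox17-deficient 1, 2 and 3, against 171, 261 and 346 CPM in controls 1, 2 and 3. The groups overlapped, and the highest value was in deficient 2. The log2 fold change was 0.20 (SE 0.41, 95% interval −0.69 to 1.10, edgeR adjusted p = 1). It was −0.02 without control 1 and −0.12 without deficient 2. Eef1a1, whose transcript holds the same mature strand, had 1421, 1508 and 943 CPM in the deficient and 1796, 1025 and 1310 CPM in the control libraries, with a log2 fold change of −0.09 (SE 0.40).

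Mir682 had 112, 197 and 159 CPM in the deficient libraries, against 316, 153 and 111 CPM in the controls. Control 1 was the highest and the remaining values overlapped. Its log2 fold change was −0.31 (SE 0.45, 95% interval −1.27 to 0.66), and without control 1 it was 0.24. Rpl37a had 183, 160.3 and 178 CPM in the deficient libraries, against 130.2, 134 and 142 CPM in the controls. Its groups did not overlap, as in 4.41% of all tested symbols with the deficient libraries higher, and its log2 fold change was 0.36 (SE 0.34). Per 100 counts of Rpl37a, Mir682 had 61.3, 122.8 and 89.5 counts in the deficient and 243, 114 and 78.2 in the control libraries, so that the ratio varied more than the level of Rpl37a. Whether reads were shared or split between Mir682, Rpl37a and the pseudogenes was not tested.

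Mir684-1 appeared on 7 lines of each file, which were summed. It had 125, 60.2 and 29.9 CPM in the deficient libraries, against 329, 46.2 and 57.1 CPM in the controls. Control 1 was far above the others, and 329 of its 697 counts stood on 1 of the 7 lines. Its log2 fold change was −1.0 (SE 0.72, 95% interval −2.57 to 0.58) and turned to 0.47 without control 1. Its locus on chromosome 2 and that of Mir684-2 on chromosome 4 lie 494 and 489 bases from a processed pseudogene on the same strand (Gm13690 and Gm11829). Mir684-2 had 12.8, 3.14 and 1.15 CPM in the deficient and 1.89, 4.5 and 4.9 CPM in the control libraries.

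Mir6236 followed the set number more than the group. It had 198, 5.58 and 46.0 CPM in Sox17-deficient 1, 2 and 3 and 322, 6.8 and 21.3 CPM in controls 1, 2 and 3, so both libraries of set 1 were high and both of set 2 low. In the fit by group the log2 fold change was −0.47 (SE 1.22, 95% interval −3.12 to 2.18). With the sets as a block it was 0.04, and without control 1 it was 2.56 (edgeR unadjusted p = 0.0389, adjusted p = 1). Rn45s was also lowest in set 2, at 40050 CPM in the deficient and 41240 CPM in the control library, against 130500 to 141200 CPM in the other deficient and 130000 to 181400 CPM in the other control libraries. Its part in the Mir6236 values was not tested.

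Scaled to the genomic span in RefSeq, the 4 highest hairpin rows exceeded the host transcripts. The mean over all 6 libraries was 256 CPM per 100 bases for Mir703, 182 for Mir682, 125 for Mir684-1 and 81.3 for Mir6236, while it was 0.75 for Mir22hg, 0.61 for Mir17hg and 0.053 for Mir143hg. The Mir684-1 value sets the sum of its 7 lines over the 86 bases of 1 locus, so it is too high as a level per line. The span runs from the first to the last base of the locus, such as 19661 bases for Mir143hg. Any introns are thus included, which lowers the values of host transcripts, so hairpins and host transcripts are not on a like scale. Where on a transcript the reads lie is not given, so the values are levels per base of this span and not densities of coverage. Low hairpin rows lay below Mir22hg and Mir17hg on this scale, such as Mir7001 at 0.202 and Mir345 at 0.469 CPM per 100 bases.

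Among the host transcripts, Mir22hg was the highest. It is the primary transcript of miR-22, 5152 bases on chromosome 11, and had 42.7, 41.4 and 32.5 CPM in the deficient libraries, against 51.9, 12.0 and 50.7 CPM in the controls. The deficient values were close together and control 2 was low. Mir22hg had a log2 fold change of 0.03 (SE 0.58, 95% interval −1.22 to 1.28), with −0.03 without deficient 1 and −0.38 without control 2. The Mir22 hairpin row inside it was at 0 in all 6 libraries.

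Mir17hg, the primary transcript of the miR-17-92 cluster that promotes proliferation and angiogenesis, had 8.88, 14.0 and 10.9 CPM in the deficient libraries, against 17.5, 11.3 and 23.1 CPM in the controls. Deficient 2 lay above control 2, so the groups overlapped. This gave a log2 fold change of −0.62 (SE 0.81, 95% interval −2.37 to 1.14) and stayed negative under all alternatives. The 6 hairpin rows inside its GENCODE span, which starts upstream of the RefSeq one used for length, had summed counts of 0 (Mir17), 6 (Mir18), 12 (Mir19a), 36 (Mir20a), 3 (Mir19b-1) and 21 (Mir92-1), against 1164 for the host transcript. All 36 counts of Mir20a came from deficient 3, where Mir17hg had 85 counts.

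Mir143hg, also named Carmn, is the host of miR-143 and miR-145, microRNAs of vascular smooth muscle. It had 5.13, 11.9 and 10.1 CPM in the deficient libraries, against 21.2, 6.47 and 7.54 CPM in the controls. Control 1 was the highest and the rest overlapped. For Mir143hg the log2 fold change was −0.36 (SE 1.06, 95% interval −2.65 to 1.93), and without control 1 it was 0.37. The 5 smooth muscle markers were also highest in control 1, at 105, 122 and 128 summed CPM in the deficient libraries and 488, 118 and 57.1 in the controls, and their part was not tested. The rows Mir143 and Mir145a were at 0 in all 6 libraries.

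Mir155hg, host of miR-155, a microRNA of activated immune cells and inflamed endothelium, had 47, 0 and 64 counts in Sox17-deficient 1, 2 and 3 and 1, 0 and 46 counts in controls 1, 2 and 3. Neither library of set 2 held a count, although these include the deepest library. The macrophage and microglia markers summed to 15.1, 167 and 91.2 CPM in the deficient and 19.3, 437 and 108 CPM in the control libraries, highest in set 2. Their part in the Mir155hg values was not tested. Mirg, a transcript of the imprinted Dlk1-Dio3 region, was at 0 in all deficient libraries and had 0, 111 and 10 counts in controls 1, 2 and 3. Of 14 hairpin rows inside Mirg none had a count.

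Rows inside the exons or introns of other genes had fewer counts than their hosts when summed over the 6 libraries. There were 19 exonic pairs with a host listed in the files, most of them protein-coding and 3 of them non-coding. Of these rows, Mir7079, Mir1903, Mir3101, Mir7050 and Mir6992 lay within an exon of retained-intron transcripts only. The exonic and intronic classes are thus not sharply separated. Over the 19 pairs the row had a median of 2.66 counts per 100 host counts (range 0.335 to 36.7). Over 10 rows in introns the median was 0.591 per 100 (range 0.256 to 18.3). On the summed counts the row was below its host in 19 of 19 exonic and 10 of 10 intronic pairs. In single libraries this could turn, as in deficient 3, where Mir6984 had 50 counts and its host Mrpl21 had 17. The spread over the 6 libraries was larger in the row than in the host for 18 of 19 exonic and 10 of 10 intronic pairs, with median coefficients of variation of 138% and 159% in the rows, against 41.9% and 40.7% in the hosts. The rows are short and held fewer counts than their hosts, and low counts alone raise this coefficient. The larger spread thus does not show variation of a row apart from its host. Counts of a row and its host may share reads, so the values are not independent.

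**Figure D2:**
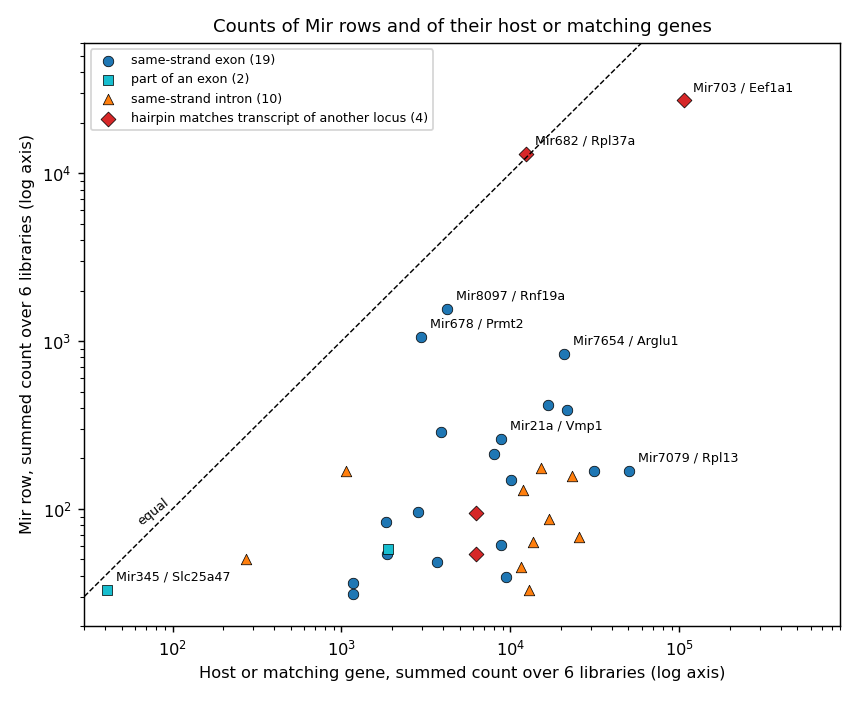
Summed count over the 6 libraries of each Mir row (vertical log axis) against that of its host gene, or of a gene elsewhere whose transcript its hairpin matches (horizontal log axis), with the number of pairs in the legend and a dashed line at equality. On these summed counts all exonic and intronic rows lie below the line, and Mir682 lies at the line with 106 counts per 100 counts of Rpl37a.

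The closest of these pairs were 2 rows in 3′ UTRs. Mir8097 in Rnf19a, a ubiquitin ligase gene, had 6.1, 20.5 and 20.8 CPM in the deficient libraries, against 9.9, 22.0 and 22.7 CPM in the controls, lower in the deficient library of each set but with overlapping groups. Its share per 100 Rnf19a counts was 15.6, 38.2 and 37.1 in the deficient and 42.0, 34.9 and 41.7 in the control libraries. The log2 fold changes were −0.21 (SE 0.78) for Mir8097, or 0.18 without deficient 1, and 0.07 (SE 0.49) for Rnf19a.

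Mir678 in Prmt2, an arginine methyltransferase gene, had 14.3, 9.79 and 20.7 CPM in the deficient libraries, against 0, 21.8 and 12.7 CPM in the controls. Control 1, without a count of Mir678, had only 3 counts of Prmt2. The log2 fold changes were 0.35 (SE 1.20) for Mir678, or −0.21 without control 1, and 0.12 (SE 0.85) for Prmt2. Mir7654, in the coding sequence of Arglu1, a splicing regulator, had 12.1, 9.96 and 6.8 CPM in the deficient and 0, 22.3 and 5.41 CPM in the control libraries (log2 0.04, SE 1.40). This turned to −0.14 without deficient 1, −0.53 without control 1 and −0.24 without control 3. Mir5136, 14 bases from the small nucleolar RNA gene Snora57, had 4.72, 11.4 and 33.5 CPM in the deficient libraries, against 0, 5.73 and 22.7 CPM in the controls, higher in the deficient library of each set. Its log2 fold change was 0.77 (SE 1.30, 95% interval −2.06 to 3.60), and −0.25 without deficient 3.

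Rows at the low end were counted in few libraries. Of the 52 rows, 11 had a count in all 6 libraries, 10 in 5, 2 in 4, 10 in 3, 9 in 2 and 10 in only 1. Of the 23 rows with a summed count of 30 to 99, 10 (43.5%) had all of it in 1 library, while 89 of 1374 other symbols in that range did (6.48%). Those 10 rows had 31 to 83 counts, with 5 in deficient 3, 2 in deficient 2, 2 in control 2 and 1 in control 3. Molecular identifiers are not mentioned in the labels, so copies of 1 molecule and separate molecules cannot be told apart. A total of 7 rows were at 0 in all deficient libraries and 7 in all controls.

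**Figure D3:**
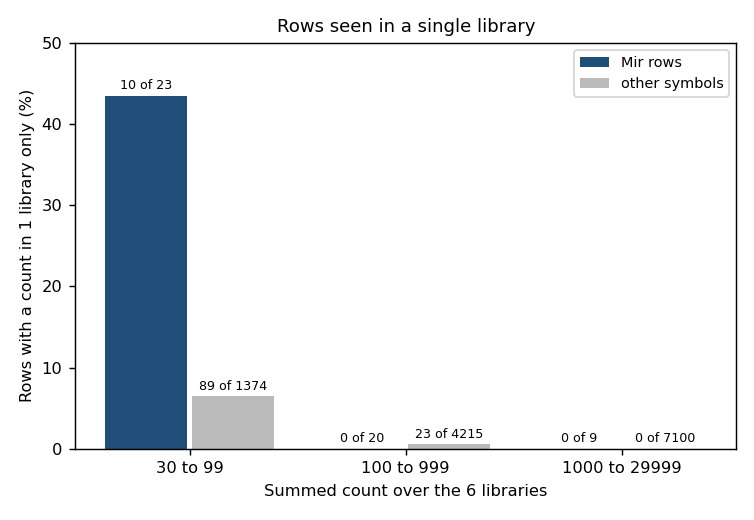
Share of rows whose whole count came from 1 library (vertical axis, %), by summed count over the 6 libraries (horizontal axis), for the Mir rows (dark bars) and all other symbols (grey bars), with the numbers above the bars. In the range of 30 to 99 counts the share was 43.5% of Mir rows and 6.48% of other symbols, and above that range no Mir row was seen in a single library.

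The threshold of 30 cut through rows of this kind. Just inside it, Mir345 had 33 counts, all in control 2, Mir7001 had 33, all in deficient 2, and Mir6992 had 31, all in deficient 3. Just outside, Mir6240 had 28 counts spread over 5 libraries, Mir1291 had 26, all in deficient 1, and Mir7688 had 26, all in deficient 3. A threshold of 10 would give 69 rows and one of 100 would give 29. With library sizes made equal, 54 rows would pass, of which 50 are among the 52.

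In a list of microRNA rows of endothelium (41 symbols, all in the files), 29 were at 0 in all 6 libraries. The other 12 had a count and 5 reached the threshold: Mir24-2, Mir21a, Mir221, Mir27a and Mir20a. Over all 1183 Mir rows, 170 had a count and 52 reached the threshold. The list includes Mir143 and Mir145a, given above as rows of smooth muscle microRNAs. Mir126a, the gene of a microRNA abundant in endothelium, had 1 count in control 2 and 0 in the other libraries. Egfl7, the endothelial gene in whose intron it lies, had 2031, 6542 and 7004 CPM in the deficient libraries, against 1222, 2814 and 4767 CPM in the controls. Of 24 rows known from blood, neural, muscle or stromal cells none had a count. The list says nothing on mature microRNAs, which these libraries do not measure.

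Mir21a lies in the 3′ UTR of Vmp1, an autophagy gene. It had 0, 5.46 and 1.54 CPM in the deficient libraries, against 0, 2.62 and 1.93 CPM in the controls. Both libraries of set 1 were at 0, and the groups overlapped. The log2 fold change was 0.58 (SE 2.24), and −1.0 without deficient 2. Vmp1 had 92.5, 126 and 96.5 CPM in the deficient and 189, 84.9 and 102 CPM in the control libraries (log2 −0.25, SE 0.41).

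Mir24-2 had 0, 0 and 233 counts in Sox17-deficient 1, 2 and 3, against 0, 41 and 124 counts in controls 1, 2 and 3. The deepest library, deficient 2, held none. Its fitted log2 fold change was 1.36 (SE 2.29, 95% interval −3.61 to 6.33), and it was −8.78 without deficient 3 (edgeR unadjusted p = 0.0463, adjusted p = 0.999), a fit against libraries at 0. With the sets as a block it was −2.15. Its neighbour Mir27a had 39 counts, all in control 3, and Mir221 had 39, all in control 2. Of the seed-sharing rows, Mir29b-1 was counted only in deficient 3 and Mir29c only in controls 2 and 3, at 2.38 and 1.61 CPM. Mirlet7d had 0, 1.25 and 0.641 CPM in the deficient and 0, 0 and 0.322 CPM in the control libraries, and Mir98 had 4.02, 0 and 0 CPM in the deficient and 0, 0 and 1.03 CPM in the control libraries. The miR-29 rows were thus counted in no common library, and the let-7 rows in control 3 alone.

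The comparison of Sox17-deficient with control cells asked whether any of these rows differ when Sox17 is deleted. No difference was detected. edgeR's filter on low counts passed 25 of the 52 rows, and a row that is high in 1 group passes more easily, so these 25 do not stand for all. After adjustment over 11392 symbols 0 of the 25 passed, where 0% of all tested symbols did, and 0 had an unadjusted p under 0.05, where 289 symbols (2.54%) did. DESeq2, run without edgeR's filter, called 0 of the 52 rows at an adjusted p under 0.05, where 32 of 16735 symbols were called. It put 4 of the 52 rows at an unadjusted p under 0.05, where 723 of 16735 symbols were. These 4 were Mir1195, Mir692-3, Mir6948 and Mirg (smallest DESeq2 adjusted p = 0.413). In edgeR the log2 fold change was above 0 in 14 of the 25 rows, against 52.8% of all tested symbols, with a median of 0.04 in both. The median SE was 1.83 on the log2 scale in the 25 rows and 0.70 over all tested symbols. For a row at this median only very large differences could have been seen. The SE ran from 0.41 to 2.59 in the 25 rows, and Mir703 (0.41) and Mir682 (0.45) lay below the median of all symbols. The CPM value was higher in the deficient library of all 3 sets in 3 rows (Mir5136, Mir147 and Mir692-3), where 14.4% of all symbols were, and lower in 2 (Mir8097 and Mir7046), where 13.3% were.

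**Figure D4:**
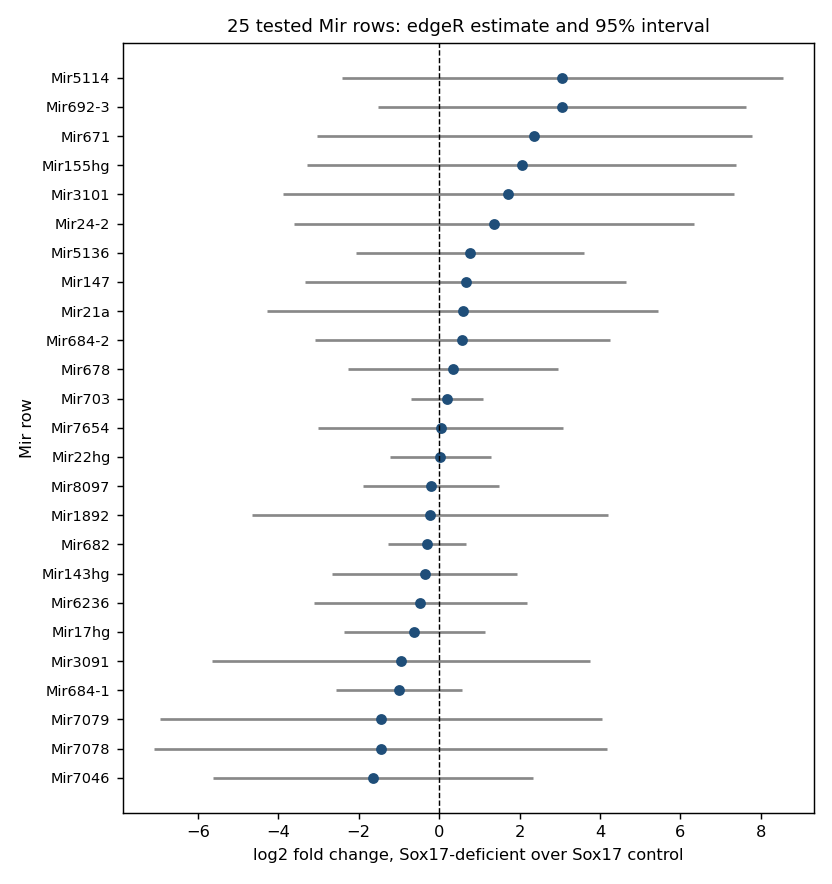
Log2 fold change of Sox17-deficient over Sox17 control (horizontal axis) for the 25 tested Mir rows (vertical axis), as edgeR estimate (points) with its 95% interval (lines). Every interval includes 0, from −1.64 for Mir7046 at the bottom to 3.06 for Mir5114 and Mir692-3 at the top.

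Mir692-3 was the 1 row of the 25 whose groups did not overlap, where 9.21% of all tested symbols did not overlap and 4.41% with the deficient libraries higher. It had 12.5, 1.57 and 3.59 CPM in the deficient libraries, against 0, 0.41 and 1.55 CPM in the controls. Deficient 2 and control 3 were nearly level, and the log2 fold change of 3.06 (SE 2.10, 95% interval −1.51 to 7.63) had an unadjusted p of 0.171 and an adjusted p of 1 in edgeR. Mir692-3 stood on 2 lines of each file, and the first line had the same count as Mir692-2 in all 6 libraries (43, 26 and 12 in the deficient, 0, 2 and 12 in the control libraries). RefSeq lists Mir692-3 also as a synonym of Mir692-2, and this line holds 95 of the 201 counts of Mir692-3. The second line alone had 6.52, 0.813 and 2.05 CPM in the deficient and 0, 0.246 and 0.773 CPM in the control libraries. The groups of Mir692-2, and so of the first line, overlapped, with 0.755 CPM in deficient 2 and 0.773 CPM in control 3. Mir692-1 had 4.855, 0.261 and 0.128 CPM in the deficient and 0, 0.328 and 0.322 CPM in the control libraries. It was thus lower in the deficient library of sets 2 and 3. Ftl1, which holds the miR-692 strand, had 131, 68.1 and 111 CPM in the deficient and 146, 55.2 and 71.7 CPM in the control libraries, with a log2 fold change of 0.19 (SE 0.46). The 3 miR-692 rows share this sequence and are not independent.

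Genes that make and use microRNAs were read from the same fit. Of 33 symbols on the list, 32 were in the files and 30 were tested, and none passed after adjustment or had an unadjusted p under 0.05 in edgeR. With DESeq2 none of 32 was called and 2 had an unadjusted p under 0.05, where 723 of 16735 symbols did. In edgeR the log2 fold change was above 0 in 18 and below 0 in 12, with a median of 0.09, against 0.04 over all tested symbols. Dicer1, the cytoplasmic nuclease, had 39.1, 86.2 and 94.9 CPM in the deficient and 5.19, 68.3 and 66.5 CPM in the control libraries, low in control 1 (log2 0.64, SE 0.71). Drosha, the nuclear nuclease, had 33.2, 52.8 and 47.2 CPM in the deficient and 5.19, 61.0 and 48.3 CPM in the control libraries (log2 0.20, SE 0.69). Dgcr8, the partner of Drosha, showed a log2 difference of 0.19 (SE 0.56), and Ago2, the slicing Argonaute, of 0.07 (SE 0.86). These 4 genes were thus measured in every library, with intervals that included 0.

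Xpo5, the export factor of precursor hairpins, was barely detected, at 2.22, 5.34 and 0 CPM in the deficient and 0, 0.0819 and 4.19 CPM in the control libraries (log2 0.78, SE 2.36). The groups did not overlap for 3 of the 30 genes, against 9.21% of all tested symbols: Ddx5 and Prkra, cofactors of Drosha and Dicer, and Khsrp, a binder of precursors. All 3 were lower in the deficient libraries, as were 4.8% of all tested symbols, and they are named because the count is small, after their values were seen. Ddx5 had 391, 454 and 385 CPM in the deficient and 774, 623 and 657 CPM in the control libraries (log2 −0.74, SE 0.35, edgeR unadjusted p = 0.0567, adjusted p = 1). Prkra had 21.5, 8.51 and 12.6 CPM in the deficient and 28.8, 36.9 and 29.8 CPM in the control libraries (log2 −1.17, SE 0.61). Khsrp had 33.2, 37.3 and 34.5 CPM in the deficient and 37.7, 54.8 and 44.6 CPM in the control libraries (log2 −0.39, SE 0.45).

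**Figure D5:**
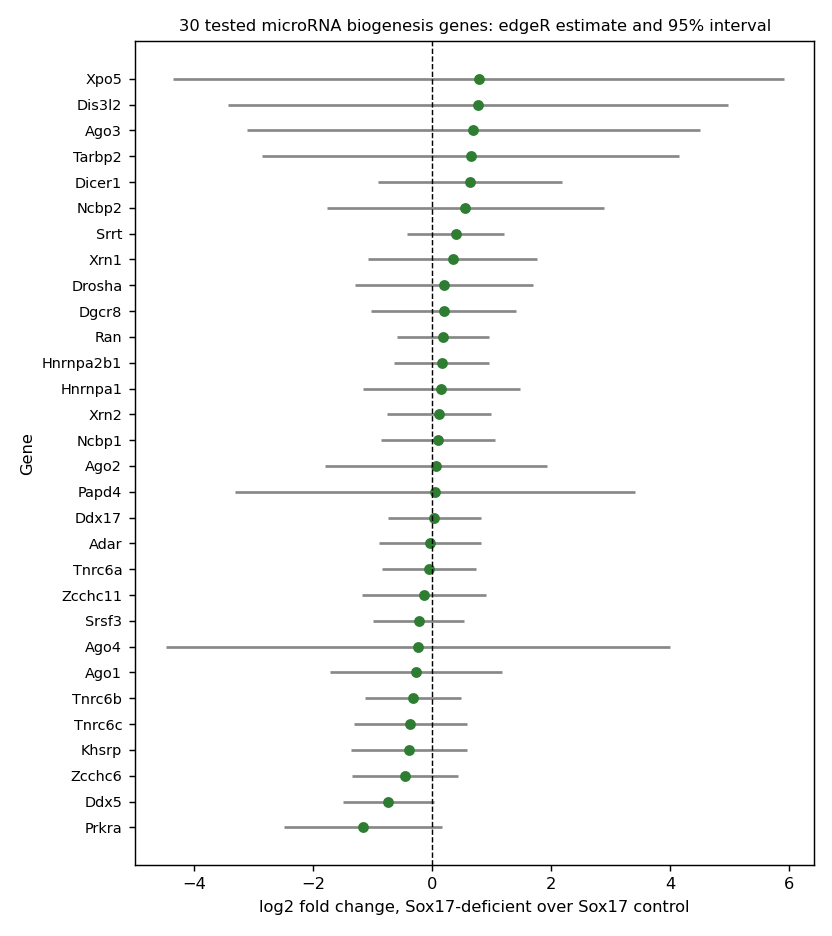
Log2 fold change of Sox17-deficient over Sox17 control (horizontal axis) for the 30 tested genes of microRNA processing and function (vertical axis), as edgeR estimate (points) with its 95% interval (lines). All intervals include 0, from −1.17 for Prkra at the bottom to 0.78 for Xpo5 at the top.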

How the data were processed

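Whole-number read counts per gene symbol were used as deposited, with 1 file per library and no normalisation by the authors that the values show. Bowtie2, edgeR and mm10 are named per the submitters' processing notes, without role or version; the counting tool, annotation and strand setting are not given in the sources used here. The labels' protocols give Trizol extraction and 500 ng of total RNA as input. Repeated lines of a symbol (43 symbols, 2 of them among the Mir rows described) were summed. Groups and set numbers came from the sample titles. The members and gene lists were chosen with earlier results of these data known.

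All 24421 symbols of the 6 Sox17 libraries entered edgeR 4.0.16 under R 4.3.3 (TMM, filterByExpr, robust quasi-likelihood F-test), which left 11392 symbols and 4 residual degrees of freedom. P-values were adjusted by the Benjamini-Hochberg method over all tested symbols, with a threshold of 0.05. The common biological coefficient of variation was 0.825. The SE is the size of the log2 fold change over the square root of F. The code was tested on simulated data. Alternatives were limma 3.58.1 (voom), DESeq2 1.42.0, other scalings and filters, a set block and leaving out each library. The main edgeR fit compared the groups without a set term. The sets entered only the comparisons within sets and the alternative with a set block. Libraries were matched into sets because the design text speaks of independent sets and run labels in the descriptions tie sets 2 and 3. Deviations of matched libraries correlated at 0.129, 0.099 and 0.095. CPM is on the TMM-scaled library size.

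Rows were placed on GRCm38 with RefSeq and GENCODE vM21. The host was a same-strand gene that overlapped the row, also where the overlap was only partial, and neighbours were taken within 50 kb. Hairpins from RefSeq were searched in GENCODE transcripts with blastn 2.17.0 on the same strand. Mature strands from RefSeq were searched as exact sequences in GENCODE protein-coding transcripts. Named rows were the 10 highest by mean CPM, rows with non-overlapping groups or an unadjusted p under 0.05, rows on the endothelial and other-cell lists, and 3 rows on each side of the threshold. Further rows were named outside this rule, after their values were seen. These were Mir7654, the other Mir684 and miR-692 rows, the remaining host transcripts, the seed-sharing rows and the rows in exons of retained-intron transcripts. Single rows beside a count or at the end of a range were named too. Of the gene list for microRNA processing, Drosha, Dgcr8, Xpo5, Dicer1 and Ago2 were named.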

Additional observations from a re-analysis of the deposited data

How the results depend on the processing

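The number of Mir rows called, and that of microRNA processing genes called, was 0 under every setting tried (RLE scaling, no low-count filter, DESeq2, limma-voom, the replicate block, leaving out Rn45s, leaving out each library). Over all symbols the count of 0 became 16 without the filter on low counts, 32 with DESeq2 and 1 with the replicate block of sets, and was 0 to 1 when 1 library was left out. The fit without a filter put 11 of 52 Mir rows at an unadjusted edgeR p under 0.05, against 857 of 16735 symbols. All 11 had an adjusted p of 0.657 or more. Among them were rows counted in 1 library only, such as Mir221 and Mir345. The replicate block changed no call among the Mir rows. Requiring 100 counts gave 29 rows. The summed level ranged from 778 to 860.4 CPM in the deficient and from 697 to 1018 CPM in the control libraries when 1 library was left out.

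Of 228 values for 19 tested rows named in the report, under these settings, 201 kept the sign of the log2 fold change and 27 did not. For 6 of these rows (Mir7654, Mir684-2, Mir155hg, Mir147, Mir7046 and Mir5114) the settings were added after seeing the data. When 1 library was left out, the range was −0.12 to 0.47 for Mir703, −0.59 to 0.24 for Mir682, −1.65 to 0.47 for Mir684-1, −2.16 to 2.56 for Mir6236 and −0.38 to 0.30 for Mir22hg. It was −0.50 to 0.18 for Mir8097, −0.25 to 2.45 for Mir5136, −0.21 to 1.21 for Mir678, −0.64 to 0.37 for Mir143hg, −8.78 to 2.48 for Mir24-2, −1.0 to 1.21 for Mir21a, −0.53 to 1.80 for Mir7654 and −0.80 to 1.06 for Mir684-2. Leaving out control 1 turned the sign in 7 rows (Mir703, Mir682, Mir684-1, Mir6236, Mir678, Mir143hg and Mir7654). When 1 library was left out, Mir17hg (−0.83 to −0.35) and Mir692-3 (1.90 to 4.53) kept theirs, as did Mir155hg, Mir147, Mir7046 and Mir5114. With limma-voom the sign turned for Mir6236 (0.56), Mir143hg (0.44), Mir24-2 (−4.27), Mir21a (−0.024), Mir684-2 (−0.34) and Mir155hg (−0.70), and with the replicate block for Mir6236 (0.035), Mir24-2 (−2.15) and Mir684-2 (−0.088). The cause was not tested. Control 1, the shallowest library, had 2085020 counts and 38 of the 52 rows at 0. Rows with a count numbered 27, 31 and 35 in deficient 1, 2 and 3 and 14, 32 and 43 in controls 1, 2 and 3. The deepest library was deficient 2, with 35098704 counts. The part of depth in the low rows was not tested.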
